A study of Astyanax mexicanus with 18 samples.

Results

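Livers make bile acids from cholesterol, and the transcripts described here encode the enzymes of that route and the carriers that move bile salts across membranes. The members were chosen by gene name from the table of liver transcript levels, as the rows named for the sterol hydroxylases cyp7a1, cyp7b1, cyp8b and cyp27a, the enzymes hsd3b7, akr1d1, amacr and baat, the export pump abcb11 and the uptake carriers slc10a1 and slc10a2. The rule took 12 of 27420 rows, of which 8 reached the level needed for testing, at least 1 TPM (transcripts per 1000000) in at least 3 of 12 libraries. The tested rows were cyp7a1, hsd3b7, AKR1D1, cyp8b2, cyp27a1.2, cyp7b1, amacr and abcb11b. The other 4 rows, abcb11a, slc10a1, a further row named SLC10A1 (1 of many) and slc10a2, stayed under 1 TPM in every library. The rule matched no row named baat or cyp8b1, and these genes were not analysed here.

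The animals were Astyanax mexicanus aged 4 months, of the Pachón population, which are blind cavefish, or of the eyed surface form. All fish had gone 4 days without food, and the refed fish of each population were then given 10 mg of Gemma feed and dissected 3 hours after it. This gave refed Pachón cavefish, starved Pachón cavefish, refed surface fish and starved surface fish, with 3 liver polyA RNA-seq libraries each, and 3 fish of each population were refed. The labels do not say whether each library came from a single fish and give neither sex nor time of day, so p-values measure only the spread between these libraries.

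In mammals the classic route begins with CYP7A1, which adds a hydroxyl group to cholesterol and limits the rate of that route. HSD3B7 and AKR1D1 then reshape the sterol ring, CYP8B1 sets how much of the product is cholic acid, and CYP27A1 oxidises the side chain and also opens an alternative route that CYP7B1 continues. AMACR prepares the side chain for shortening in the peroxisome, and ABCB11 pumps the finished bile salts out of the hepatocyte into bile. Bile acids return to the liver after a meal and, through the receptor FXR, encoded by nr1h4, lower their own synthesis.

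The livers carried the hepatocyte markers. The 15 marker rows summed to 180260 to 223775 TPM in refed Pachón cavefish, 181071 to 228788 in starved Pachón cavefish, 214981 to 266750 in refed surface fish and 102988 to 221816 in starved surface fish. The lowest sum was in starved surface replicate 2. Single rows varied widely over all libraries, with fabp10a at 27975 to 138032 TPM and hpx at 3286 to 41527 TPM. The marker row apoa1a reached at most 10.57 TPM and was at 0 in 5 of 12 libraries. Pairs of libraries within a group had a Pearson r across genes of 0.9 or more, and the lowest was between starved surface replicates 1 and 2. The number of reads behind each value is unknown, since TPM do not carry it. Because these are whole livers, fewer cells of a type and less RNA per cell cannot be told apart. Duct marker rows, 8 in number, summed to 594 to 811 TPM in refed Pachón cavefish and 869 to 1020 TPM in refed surface fish, and their defining genes cftr and spp1 stayed under 0.1 TPM. Macrophage marker rows, 7 in number, summed to 69.0 to 220 TPM in refed Pachón cavefish, 62.7 to 127 TPM in starved Pachón cavefish, 175 to 223 TPM in refed surface fish and 311 to 473 TPM in starved surface fish, with timd4 at 0 in 7 of 12 libraries. Much of that sum was cd74a (44.25 to 292 TPM) and lgmn (10.7 to 227 TPM), while csf1ra and the c1q rows reached at most 29.3 TPM. Adipocyte marker rows, 5 in number, summed to 120 to 211 TPM in starved Pachón cavefish and 229 to 394 TPM in starved surface fish, with lepb and cidea at 0 in all 12. Most of that sum was lpl (65.4 to 566 TPM over all libraries), while cidec reached at most 38.3 TPM and lepa 5.66 TPM. Intestine marker rows, 12 in number, summed to 966 to 1937 TPM in refed and 678 to 947 TPM in starved Pachón cavefish, much of it apoa4a and chia.4, with cdx1b at 0 in all 12 libraries. Sums thus did not overlap for duct markers between refed populations, for macrophage and adipocyte markers between starved populations, for macrophage markers between refed and starved surface fish, and for intestine markers between refed and starved Pachón cavefish. Their part in the results of those comparisons was not tested. Exocrine pancreas marker rows, 10 in number, summed to at most 42.5 TPM. The only erythrocyte marker rows matched were slc4a1a and slc4a1b, which summed to at most 10.8 TPM. No listed globin symbol matched a row, so that sum does not show how much blood RNA was present.

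Of the 8 tested members, 6 were called in at least 1 comparison, and the share of all genes so called was not computed. All 9 member calls were towards lower levels, in Pachón cavefish against surface fish or in refed against starved fish. Of all tested genes, limma called 9.68% lower and 9.03% higher in surface refeeding, and 7.64% and 22.9% in Pachón refeeding. Between starved populations it called 7.02% lower and 6.04% higher, and between refed populations 3.62% and 9.82%. How many of all genes showed no overlap between the groups compared was not computed either. Differences are given as log2 ratios of TPM + 1 ± the standard error (SE) of a limma fit over all 13157 tested genes, and they understate the change of low genes. Calls needed an adjusted p under 0.05. Levels are mean TPM ± SD. The 4 comparisons share groups, so a low value in 1 group can enter more than 1 of them. Both hsd3b7 and AKR1D1 were called in more than 1 comparison.

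**Figure D1:**
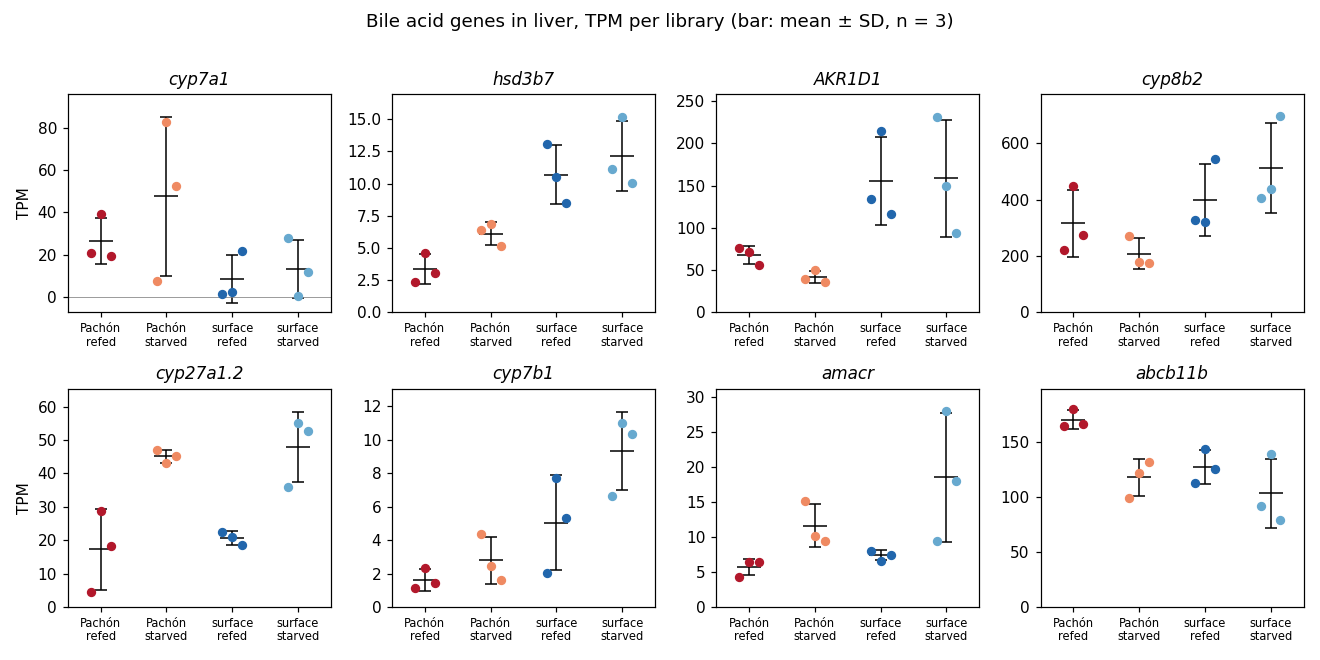
TPM of the 8 tested bile acid genes (vertical axes, linear) in each library, by group, with refed Pachón, starved Pachón, refed surface and starved surface fish from left to right. Points are libraries and bars are the mean ± SD of 3 libraries. hsd3b7 and AKR1D1 lie lower in all Pachón libraries than in any surface library, while cyp7a1 spans 0.42 to 82.5 TPM.

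The classic route starts with cyp7a1 (ENSAMXG00000006152), and it was called in no comparison while its libraries varied widely within groups. Refed Pachón cavefish had 20.9, 39.0 and 19.4 TPM, and starved Pachón cavefish had 7.61, 82.5 and 52.3 TPM. Refed surface fish had 1.60, 2.42 and 21.8 TPM, and starved surface fish had 27.9, 0.42 and 11.8 TPM. The highest library was 197 times the lowest, the widest spread of any tested member, and the lowest was starved surface replicate 2, the library with the lowest hepatocyte marker sum. In its group that library also had the highest hsd3b7, amacr, abcb11b, cyp27a1.2 and cyp7b1, and middle values of AKR1D1 and cyp8b2. A link between the marker sum and the cyp7a1 value was not tested.

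Mean cyp7a1 was highest in starved Pachón cavefish at 47.5 ± 37.7 TPM, then 26.4 ± 10.9 TPM in refed Pachón cavefish, 13.4 ± 13.8 TPM in starved surface fish and 8.60 ± 11.4 TPM in refed surface fish (SD, n = 3 each). Every neighbouring pair in this order overlapped. Between refed populations the log2 fold change was 2.15 ± 1.16, with a 95% interval of -0.40 to 4.70 (limma adjusted p = 0.243), and between starved populations it was 2.06 ± 1.16, with an interval of -0.49 to 4.61 (limma adjusted p = 0.267). Without starved surface replicate 2 the starved cyp7a1 difference was 0.81, and over all single libraries left out it ranged from 0.81 to 3.05, and the refed one from 1.57 to 3.13. The meal gave -0.37 ± 1.16 in Pachón cavefish and -0.46 ± 1.16 in surface fish (limma adjusted p = 0.848 and 0.828), and the sign of each turned when certain single libraries were left out (-1.35 to 0.29 in Pachón cavefish and -1.71 to 0.46 in surface fish).

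The ring-modifying enzyme hsd3b7 (ENSAMXG00000041460) was lower in Pachón cavefish whether refed or starved, with no overlap between populations. It had 2.34, 4.63 and 3.08 TPM in refed Pachón cavefish, against 13.1, 10.5 and 8.52 TPM in refed surface fish. Starved Pachón cavefish had 6.36, 6.83 and 5.14 TPM, against 11.1, 15.2 and 10.1 TPM in starved surface fish. Every library of Pachón cavefish was thus under every library of surface fish, whichever the feeding state.

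Among refed fish the hsd3b7 difference was -1.44 ± 0.24 (limma adjusted p = 0.00287), and this call stood under every alternative, with adjusted p up to 0.0185. Among starved fish it was -0.87 ± 0.24 (limma adjusted p = 0.0377). That call ended with no filter, under median-of-ratios scaling, with only the starved groups fitted, and when any of 6 libraries was left out, namely all 3 starved Pachón libraries, starved surface replicates 1 and 2 and refed Pachón replicate 3 (adjusted p up to 0.134). Within Pachón cavefish hsd3b7 was also lower after the meal, at 3.35 ± 1.17 TPM in refed fish and 6.11 ± 0.87 TPM in starved fish (SD, n = 3 each), without overlap. The refeeding change was -0.74 ± 0.24 (limma adjusted p = 0.0400), and it was no longer called without refed Pachón replicate 1 or 3, any starved Pachón library or refed surface replicate 2, nor with no filter (adjusted p up to 0.158). In surface fish the meal gave -0.17 ± 0.24 with overlapping libraries (limma adjusted p = 0.686). Between the populations these responses differed by -0.57 ± 0.34, which was not called (limma adjusted p = 0.422), so the meal response of hsd3b7 was not shown to differ between the populations.

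AKR1D1 (ENSAMXG00000015298), the reductase that acts on the sterol ring after HSD3B7 in mammals, was likewise lower in Pachón cavefish in both states. Among refed fish the Pachón libraries had 76.2, 71.0 and 56.0 TPM, against 134, 215 and 117 TPM in refed surface fish. Starved Pachón cavefish had 39.95, 50.2 and 36.04 TPM, against 232, 150 and 94.0 TPM in starved surface fish. No Pachón library reached the lowest surface library.

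The starved difference in AKR1D1 was -1.81 ± 0.34 (limma adjusted p = 0.00569) and stood under every alternative, with adjusted p up to 0.0288. The refed difference was -1.15 ± 0.34 (limma adjusted p = 0.0447). It ended with no filter and without any of the 6 Pachón libraries or refed surface replicate 1 or 2 (adjusted p up to 0.160). After the meal AKR1D1 was at 67.7 ± 10.5 TPM in refed and 42.1 ± 7.33 TPM in starved Pachón cavefish (SD, n = 3 each), a change of 0.68 ± 0.34 without overlap that was not called (limma adjusted p = 0.157), though it was with only the Pachón libraries fitted (adjusted p = 0.0412). Refed and starved surface fish had 155 ± 52.3 and 158 ± 69.3 TPM (SD, n = 3 each), a difference of 0.01 ± 0.34 with an interval of -0.73 to 0.75 (limma adjusted p = 0.987).

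The most abundant member was cyp8b2 (ENSAMXG00000019923), of the family of the mammalian enzyme that sets the cholic acid share. Starved Pachón cavefish had 271, 178 and 176 TPM, against 404, 436 and 696 TPM in starved surface fish, without overlap. This was a difference of -1.28 ± 0.34 (limma adjusted p = 0.0306), which ended with only the starved groups fitted, and without starved Pachón replicate 2 or 3 or starved surface replicate 3 (adjusted p up to 0.110). With the replicate block the adjusted p of this cyp8b2 difference was 0.0560.

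After the meal the cyp8b2 levels of the populations overlapped, at 221, 449 and 276 TPM in refed Pachón cavefish and 327, 321 and 544 TPM in refed surface fish. The refed difference was -0.35 ± 0.34 (limma adjusted p = 0.531). The refeeding change had a positive sign in Pachón cavefish, 0.56 ± 0.34, and a negative one in surface fish, -0.37 ± 0.34 (limma adjusted p = 0.242 and 0.494). Between these responses the difference was 0.93 ± 0.48, the largest of any tested member, and it was not called (limma adjusted p = 0.354).

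The side-chain hydroxylase cyp27a1.2 (ENSAMXG00000006107) was called for the meal in Pachón cavefish only, and between populations in neither feeding state. After the meal Pachón cavefish had 4.56, 28.9 and 18.3 TPM, against 46.96, 43.1 and 45.3 TPM in starved Pachón cavefish. Refed surface fish had 22.6, 21.0 and 18.6 TPM, against 35.97, 55.2 and 52.8 TPM in starved surface fish. Every refed library was thus below every starved library, in both populations.

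In Pachón cavefish cyp27a1.2 fell by 1.64 ± 0.48 on the log2 scale after the meal (limma adjusted p = 0.0221). The lowest value, in refed Pachón replicate 1, set the wide spread of that group, and without that library the change was -0.94. The call ended without any 1 of the 3 starved Pachón libraries and with only the Pachón libraries fitted (adjusted p up to 0.0631). In surface fish the change was -1.15 ± 0.48 and was not called (limma adjusted p = 0.116), but it was with only the surface libraries fitted (adjusted p = 0.0469) and without refed Pachón replicate 1 (adjusted p = 0.0105). The difference between the responses was -0.49 ± 0.67 with an interval of -1.97 to 0.99 (limma adjusted p = 0.738), and its sign turned without refed Pachón replicate 1. Between starved populations cyp27a1.2 differed by -0.06 ± 0.48 with an interval of -1.11 to 0.98 (limma adjusted p = 0.946). The refed populations differed by -0.56 ± 0.48 with an interval of -1.60 to 0.49 (limma adjusted p = 0.476).

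On the alternative route, cyp7b1 (ENSAMXG00000019561), the oxysterol hydroxylase, was a low transcript that was lower in starved Pachón cavefish than in their starved surface counterparts. Starved Pachón cavefish had 4.34, 2.45 and 1.60 TPM, against 6.64, 11 and 10.3 TPM in starved surface fish, without overlap. The difference was -1.48 ± 0.39 (limma adjusted p = 0.0286), and it ended with no filter and without starved Pachón replicate 2 or 3 or starved surface replicate 2 or 3 (adjusted p up to 0.114). Refed Pachón cavefish had 1.11, 2.36 and 1.43 TPM, against 2.06, 7.72 and 5.31 TPM in refed surface fish, which overlapped (-1.10 ± 0.39, limma adjusted p = 0.0828). Without refed surface replicate 1, the low library of its group, the refed difference was -1.52 (adjusted p = 0.0160). Neither meal response of cyp7b1 was called, with -0.49 ± 0.39 in Pachón cavefish and -0.87 ± 0.39 in surface fish (limma adjusted p = 0.375 and 0.139). The surface value of cyp7b1 was -0.45 without refed surface replicate 1, and the Pachón value was -0.21 without starved Pachón replicate 1.

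The racemase gene amacr (ENSAMXG00000029907), which acts on the side chain before its peroxisomal shortening, was lower in refed than in starved fish of each population without overlap. In refed Pachón cavefish it had 4.34, 6.41 and 6.37 TPM, against 15.1, 10.2 and 9.45 TPM in starved Pachón cavefish. Refed surface fish had 8.01, 6.58 and 7.48 TPM, against 9.47, 27.9 and 18.0 TPM in starved surface fish. The starved surface fish spread the most, and their highest library was replicate 2.

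The surface change of amacr was -1.10 ± 0.33 (limma adjusted p = 0.0384). It ended with no filter, with the replicate block (adjusted p = 0.0649), with only the surface libraries fitted (adjusted p = 0.134) and on leaving out any single library other than replicate 1 of refed Pachón, starved Pachón or starved surface fish (adjusted p up to 0.105). The Pachón change was -0.90 ± 0.33 and just missed the threshold (limma adjusted p = 0.0596). That change was called under all 3 other scalings (adjusted p from 0.00924 to 0.0325), at 5 TPM or more (adjusted p = 0.0480), with only the Pachón libraries fitted (adjusted p = 0.0261) and without starved surface replicate 1 or 2 (adjusted p = 0.0177 and 0.0250). The 2 responses differed by 0.21 ± 0.47, with an interval of -0.82 to 1.23 (limma adjusted p = 0.852).

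The export pump gene abcb11b (ENSAMXG00000018718) had the narrowest fold range of the tested members, 79.3 to 180 TPM, and was called in no comparison. Refed Pachón cavefish had 165, 180 and 166 TPM, and starved Pachón cavefish had 99.3, 122 and 132 TPM. Refed surface fish had 113, 143 and 126 TPM, and starved surface fish had 92.1, 139 and 79.3 TPM. The refed Pachón libraries were above all 9 others.

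That meal change of abcb11b was 0.54 ± 0.24 in Pachón cavefish, with an interval of 0.02 to 1.06 (limma adjusted p = 0.112), and 0.33 ± 0.24 in surface fish, with an interval of -0.19 to 0.85 (limma adjusted p = 0.371). Between refed populations it differed by 0.43 ± 0.24 without overlap (limma adjusted p = 0.260), and between starved populations by 0.22 ± 0.24 (limma adjusted p = 0.581). The second pump row, abcb11a, was listed at 0 to 0.14 TPM. Of the uptake carriers, slc10a1, the mammalian hepatocyte carrier of bile salts from blood, was listed at 0 to 0.96 TPM, its further row SLC10A1 (1 of many) at 0 to 0.64 TPM, and slc10a2, the mammalian ileal carrier, at 0.20 to 0.91 TPM. These rows were not tested.

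**Figure D2:**
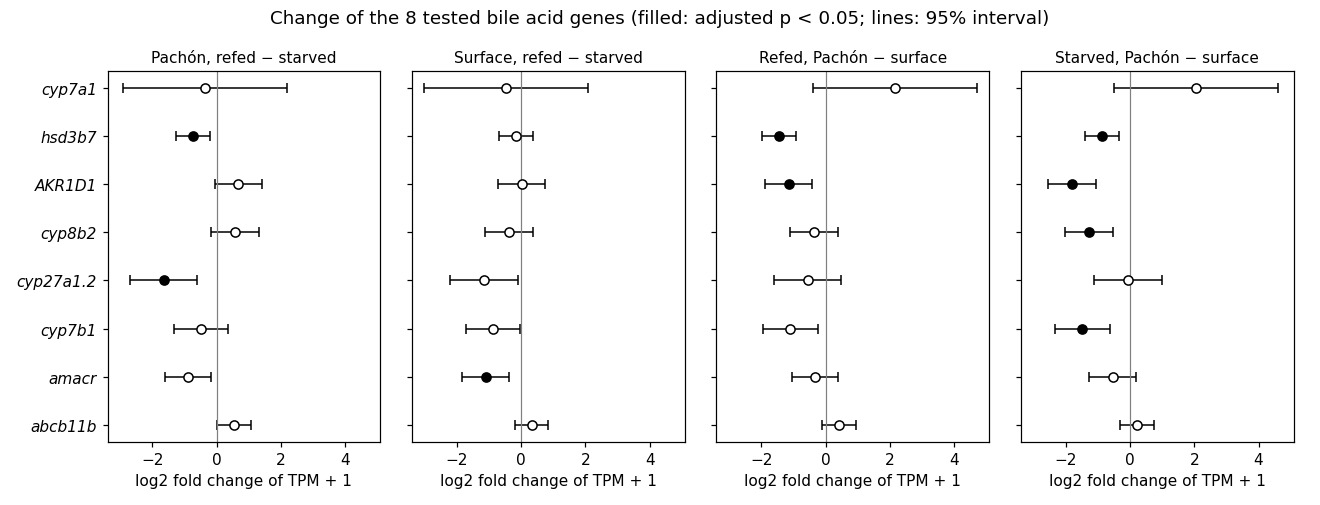
Log2 fold changes of TPM + 1 (horizontal axes) of the 8 tested bile acid genes in 4 comparisons, with 95% intervals from the limma fit and filled points for calls at an adjusted p under 0.05. The 9 filled points all lie left of 0, and cyp7a1 has the widest interval, for example -0.40 to 4.70 between refed populations.

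Set against the whole table, 4 of 8 members were lower and 0 higher in starved Pachón than in starved surface fish, where 7.02% of all tested genes were called lower and 6.04% higher. The members' median change there was -0.70, beside -0.13 over all genes. Between refed populations 2 members were lower and 0 higher (3.62% and 9.82% of all genes), with a median of -0.45 beside 0.18. Pachón refeeding gave 2 lower and 0 higher (7.64% and 22.9% of all genes, 30.6% in either direction), with a median of -0.43 beside 0.17. Surface refeeding gave 1 lower and 0 higher (9.68% and 9.03% of all genes, 18.7% in either direction), with a median of -0.41 beside -0.04. At an unadjusted p under 0.05, limma gave 0 higher and 4 lower members between starved populations, where 29.0% of all genes passed in either direction, and 0 and 3 between refed populations (29.5%). It gave 1 higher, abcb11b, and 3 lower in Pachón refeeding (41.1%) and 0 and 3 in surface refeeding (33.1%). For the difference between the refeeding responses limma called 0 of 8 members, against 0.0684% of all genes (0.0608% higher and 0.0076% lower), and 0 had an unadjusted p under 0.05, as 16.5% of all genes had. The members' median for that difference was 0.21, beside 0.29 over all genes. With no filter on low values the members called numbered 2 between starved, 1 between refed, 1 in Pachón refeeding and 0 in surface refeeding. Genes called under that setting numbered 1795, 1807, 3777 and 2006 in the same order, where the main fit called 1719, 1768, 4024 and 2461.

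The wider pathway was followed through a list of 36 symbols of receptors, peroxisomal and other synthesis steps and further carriers, of which 26 matched 29 rows and 23 rows were tested. The other 10 symbols are not shown to be absent genes, since sult2st and slco1f were listed without a number and so missed rows such as sult2st2 and slco1f3, which were not analysed here. Between starved populations 1 of the 23 was higher and 3 were lower in Pachón cavefish (6.04% and 7.02% of all genes). Between refed populations 1 was higher and 0 lower (9.82% and 3.62% of all genes). The meal gave 2 higher and 2 lower in Pachón cavefish (22.9% and 7.64% of all genes). In surface fish it gave 0 higher and 1 lower (9.03% and 9.68% of all genes). For the difference between the responses limma called 0, against 0.0684% of all genes in either direction. At an unadjusted p under 0.05, limma gave 1 higher and 8 lower of the 23 between starved populations, 6 and 3 between refed populations, 3 and 3 in Pachón refeeding, 5 and 8 in surface refeeding and 3 and 0 for the difference between the responses. The shares of all genes at that p were 29.0%, 29.5%, 41.1%, 33.1% and 16.5% in the same order of comparisons. In that order the median changes of the 23 were -0.29, -0.05, 0.13, -0.39 and 0.36. Over all genes the medians were -0.13, 0.18, 0.17, -0.04 and 0.29.

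Among receptors, nr1h4, the bile acid sensor FXR, was lower after the meal in Pachón cavefish. Its levels were 5.18, 13.6 and 9.38 TPM in refed and 34.7, 27.3 and 29.4 TPM in starved Pachón cavefish, and the change was -1.68 ± 0.45 (limma adjusted p = 0.0156). The call ended without refed or starved Pachón replicate 1 (adjusted p up to 0.0707). In surface fish nr1h4 had 6.76, 28.2 and 21.0 TPM when refed and 45.4, 31.9 and 30.1 TPM when starved, a change of -1.08 ± 0.45 that was not called (limma adjusted p = 0.118). The refed groups were thus below the starved ones without overlap in both populations. The nr1h4 responses differed by -0.59 ± 0.64, which was not called (limma adjusted p = 0.659).

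The repressor SHP, which FXR induces in mammals, had a pair of rows. nr0b2a had 23.3, 33.8 and 20.8 TPM in refed Pachón cavefish and 5.51, 10.97 and 14.7 TPM in refed surface fish, a difference of 1.30 ± 0.39 (limma adjusted p = 0.0464). It ended under all 3 other scalings, with no filter, with only the refed groups fitted, and without any 1 of 9 libraries (adjusted p up to 0.155). It was kept without starved Pachón replicate 1, refed surface replicate 3 or starved surface replicate 3. nr0b2b had 3.43, 24.0 and 6.85 TPM in refed Pachón, 9.23, 2.34 and 2.36 TPM in starved Pachón, 10.3, 35.4 and 25.4 TPM in refed surface and 10.6, 1.15 and 4.81 TPM in starved surface fish, and was called in no comparison (lowest limma adjusted p = 0.0790, for surface refeeding).

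The liver factor gene hnf4a, which drives CYP7A1 and CYP8B1 in mammals, had 8.82, 30.8 and 17.8 TPM in starved Pachón cavefish and 64.4, 32.1 and 49.0 TPM in starved surface fish. The difference was -1.40 ± 0.42 (limma adjusted p = 0.0484), and it ended under 7 of 9 other settings, among them 2 of 3 scalings, the replicate block (adjusted p = 0.0858) and only the starved groups fitted (adjusted p = 0.110), and without any 1 of 8 libraries (adjusted p up to 0.158). Those 8 were all refed Pachón libraries, starved Pachón replicates 1 and 3, refed surface replicate 1 and starved surface replicates 1 and 3. fgfr4, the receptor through which the hormone FGF19 lowers bile acid synthesis in mammals, was higher in starved Pachón cavefish. It had 31.0, 64.1 and 55.3 TPM there and 17.3, 13.2 and 9.40 TPM in starved surface fish, a difference of 1.81 ± 0.44 (limma adjusted p = 0.0221) that ended without starved Pachón replicate 2 or 3 or starved surface replicate 2 or 3 (adjusted p up to 0.0800). Between refed populations fgfr4 differed by 0.99 ± 0.44 with overlap, which was not called (limma adjusted p = 0.164). The Pachón meal change of fgfr4 was -1.03 ± 0.44 without overlap, also not called (limma adjusted p = 0.103). The hormone gene fgf19 itself was measured in liver at 4.32 to 62.8 TPM and called in no comparison, and klb, the co-receptor gene, was at 0 to 0.04 TPM.

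Of the peroxisomal genes, hsd17b4, whose enzyme oxidises fatty acid and bile acid side chains, was highest in starved surface fish. It had 126, 103 and 101 TPM in refed Pachón cavefish, and starved Pachón cavefish had 112, 106 and 87.3 TPM. Refed surface fish had 106, 137 and 99.9 TPM, and starved surface fish had 345, 266 and 358 TPM. The surface change with the meal was -1.49 ± 0.22 (limma adjusted p = 0.00157) and the starved Pachón to surface difference -1.65 ± 0.22 (limma adjusted p = 0.000665), and both stood under every alternative. The refeeding responses differed by 1.60 ± 0.31, which was not called (limma adjusted p = 0.0930).

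The thioesterase gene acot8, which frees bile acids and fatty acids from coenzyme A in the peroxisome, rose in Pachón cavefish to 63.0, 32.1 and 29.7 TPM in refed fish, against 1.24, 6.96 and 3.19 TPM in starved fish. This was 3.25 ± 0.51 (limma adjusted p = 0.000820), and it stood under every alternative. In surface fish acot8 had 14.6, 10.9 and 13.6 TPM when refed and 1.64, 8.13 and 3.37 TPM when starved, a change of 1.56 ± 0.51 without overlap that was not called (limma adjusted p = 0.0543). The acot8 responses differed by 1.69 ± 0.72, which was not called either (limma adjusted p = 0.272). The acyl-CoA ligase gene slc27a2a had 48.6, 55.1 and 43.0 TPM in starved Pachón cavefish and 123, 106 and 95.4 TPM in starved surface fish, a difference of -1.13 ± 0.22 (limma adjusted p = 0.00635) that stood under every alternative. Between refed populations slc27a2a differed by -0.56 ± 0.22 without overlap, which was not called (limma adjusted p = 0.108).

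Among carriers, slc51a, a subunit of the basolateral bile salt exporter, rose with the meal in Pachón cavefish. It had 128, 135 and 83.2 TPM in refed and 60.5, 38.0 and 60.9 TPM in starved Pachón cavefish, a change of 1.10 ± 0.29 (limma adjusted p = 0.0143). That call ended under median-of-ratios scaling and quantile normalization, and without refed Pachón replicate 1 or 2 or starved Pachón replicate 2 (adjusted p up to 0.0727). In surface fish slc51a changed by 0.75 ± 0.29, without overlap as in Pachón cavefish, and was not called (limma adjusted p = 0.0973). The slc51a responses differed by 0.36 ± 0.41, which was not called either (limma adjusted p = 0.682). slco1d1, an organic anion uptake carrier, fell by 0.80 ± 0.26 on the log2 scale in Pachón cavefish, with 182, 259 and 244 TPM in refed and 508, 358 and 338 TPM in starved fish (limma adjusted p = 0.0356). It ended with no filter, with the replicate block (adjusted p = 0.0676), and without any refed Pachón library or starved Pachón replicate 1 or 2 (adjusted p up to 0.136). In surface fish slco1d1 changed by -0.71 ± 0.26, without overlap as in Pachón cavefish, and was not called (limma adjusted p = 0.0791). The slco1d1 responses differed by -0.09 ± 0.37, which was not called either (limma adjusted p = 0.919). The phospholipid flippase gene abcb4 and the sterol exporter genes abcg5 and abcg8 were called in no comparison. Their lowest adjusted p were between refed populations. There abcg8 differed by 1.14 ± 0.35 without overlap (limma adjusted p = 0.0548) and abcg5 by 1.11 ± 0.40 with overlap (limma adjusted p = 0.0901). For abcb4 the value was -0.51 ± 0.42 (limma adjusted p = 0.457).

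**Figure D3:**
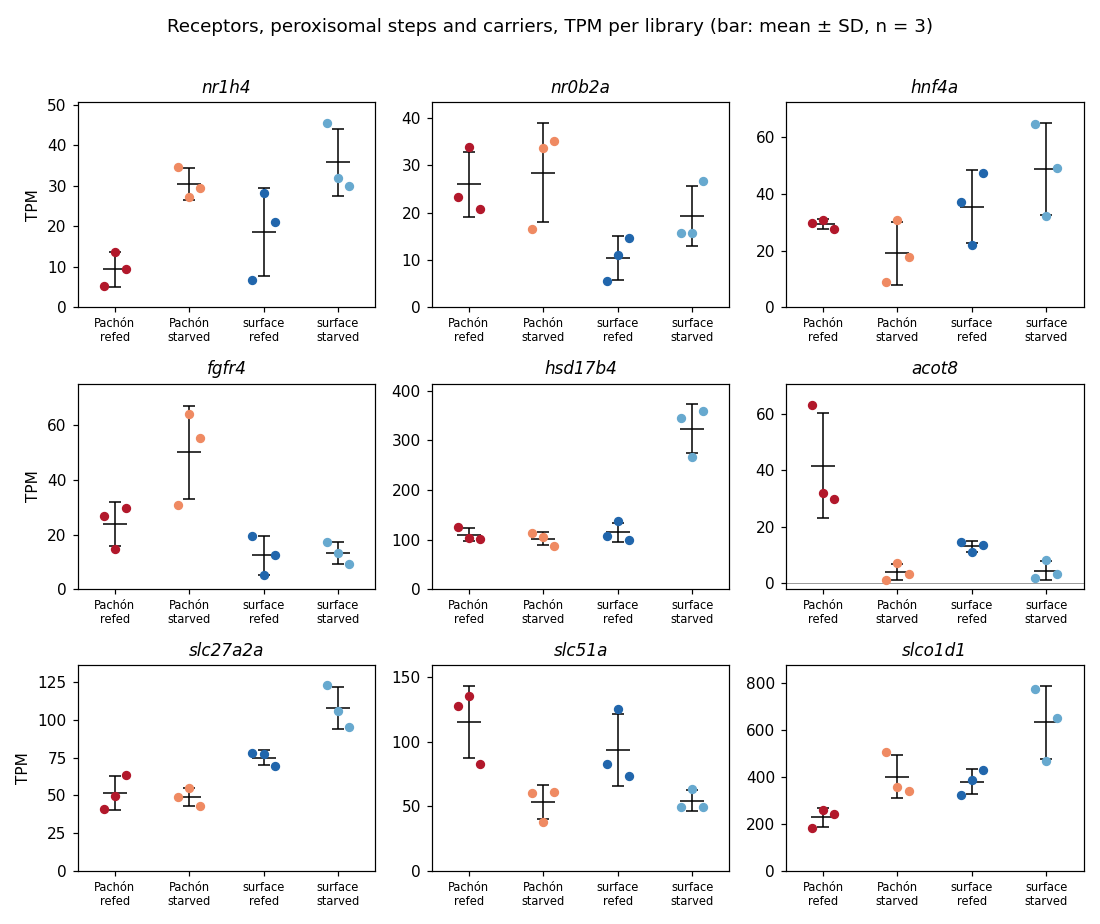
TPM (vertical axes, linear) per library of the 9 genes of the wider list that were called at least once, by group, with bars for the mean ± SD of 3 libraries. hsd17b4 stands at 266 to 358 TPM in starved surface fish and at 87.3 to 137 TPM in the other libraries, and acot8 is highest in refed Pachón cavefish.

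Genes whose pattern over the 12 libraries was most like that of cyp7a1 or hsd3b7 were found by Pearson r of log2(TPM + 1) among 6523 tested genes with a symbol and a group mean of at least 5 TPM. These values describe 12 libraries that fall into 4 groups and carry no test. For cyp7a1 they were fbxo7, a ubiquitin ligase adaptor (r of 0.945), c4, a complement component (0.879), si:ch211-262h13.5 and the GTPase gene cdc42 (0.874 each) and frg1 (0.864). fbxo7 spanned only 5.53 to 13.8 TPM, while cyp7a1 spanned 0.42 to 82.5 TPM. For hsd3b7 they were the complement gene c3b.2 (0.914), igf2bp2b (0.912), the phosphatase gene ptpn18 (0.909), otulinb (0.908) and the tetraspanin gene cd82a (0.907). No other bile acid gene was among these 10.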

How the data were processed

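Liver RNA-seq of 12 libraries was analysed, and the 6 ChIP-seq libraries of the series were not used here. The authors deposited TPM per gene and library. The tools listed in the submitters' processing notes include STAR 2.6.1c and RSEM, without their settings, while build and annotation were not given in the sources used here. Libraries were made with a stranded mRNA kit and read from a single end, per the labels' protocols.

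From these TPM, log2(TPM + 1) was fitted with limma 3.58.1 in R 4.3.3, with 4 group means, a mean-variance trend and 8 residual degrees of freedom, without the replicate number. Of 27420 genes, the 13157 with at least 1 TPM in at least 3 libraries were tested. Calls needed a two-sided p under 0.05 after Benjamini-Hochberg adjustment over all of them. The step was tested on simulated data. No 2 libraries were identical. Groups and columns were matched by sample titles. The members, the wider list, the 7 marker lists and the naming rule (all members, listed genes that were called, the 5 genes most like cyp7a1 and hsd3b7) were chosen with earlier results of these data known. Genes named beyond this rule were chosen after their values were seen. Alternatives were another pseudocount (0.5), 2 filters, 3 scalings, the replicate block, only the groups compared and each library left out. TPM depend on the most abundant genes, and reads of near-identical copies can be split between rows. Both SLC10A1 and nr0b2 had more than 1 row, and how alike these copies are was not checked. Of cyp27a the rule took only the row cyp27a1.2, so reads of any copy under another name were not followed.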

Additional observations from a re-analysis of the deposited data

How the results depend on the processing

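Of the 9 member calls, none changed sign under any of the 21 alternatives, and the calls on hsd3b7 in refed and AKR1D1 in starved fish were kept in all of them. Over all 9, 133 of 189 values kept their call and 56 lost it. Among the 31 member results that were not called, 12 of 643 values were called under an alternative and 30 changed sign. The cause of these changes was not tested. TPM keep no depth, so what depth limits cannot be given.

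With only the groups compared fitted, 837 genes were called in surface refeeding, where the main fit called 2461. In Pachón refeeding that setting called 4720 genes and 3 members, where the main fit called 4024 and 2. Between starved populations it called 1146 genes and 2 members, where the main fit called 1719 and 4. Between refed populations it called 1405 genes, where the main fit called 1768. At 5 TPM or more, 969 genes were called between starved and 1017 between refed populations, and 0 of 7747 for the difference in response (1350 at an unadjusted limma p under 0.05). With no filter 0 members were called in surface refeeding (2 unadjusted), 1 in Pachón refeeding, 2 between starved and 1 between refed populations. Genes called under that setting numbered 2006, 3777, 1795 and 1807 in the same order, and 21 for the difference in response. For that difference 4 genes were called with a pseudocount of 0.5. After the 20 most abundant genes were taken out of the TPM scaling, 1 gene was called for it. Starved surface replicate 2 and refed Pachón replicate 1 were also both left out, a choice made after seeing the data. Then 1 member was called in Pachón refeeding, 2 between starved and 1 between refed populations. Genes called numbered 3104, 1199 and 1393 in that order, and 0 for the difference in response (1401 at an unadjusted limma p under 0.05). With 1 library left out, genes called ranged from 1406 to 2387 for surface refeeding, 881 to 1794 between starved populations, 1077 to 1983 between refed populations and 0 to 55 for the difference, and members called from 0 to 2, 1 to 4 and 1 to 2 in the first 3 and 0 to 3 for Pachón refeeding.

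The replicate numbers showed no clear pairing of the libraries. Of 18 same-numbered pairs, 1 deviated together with r over 0.1 (-0.245 to 0.123), and 9 of 36 best matches had the same number. These values cannot decide whether libraries were paired or shared a batch, since the deviations of the 3 libraries of a group sum to 0. With the replicate block, 0 members were called in surface refeeding (3 unadjusted by limma) and 0 genes for the difference in response (1865 unadjusted). The block left 1911, 3535, 1298 and 1352 genes called in surface refeeding, Pachón refeeding, starved and refed populations.

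Median-of-ratios scaling and quantile normalization moved the median of all genes by -0.196 and -0.204 in Pachón refeeding, -0.261 and -0.273 for the difference in response, -0.165 and -0.171 between refed populations, and quantile normalization by 0.107 between starved populations. Under median-of-ratios scaling, rescaling and quantile normalization, cyp27a1.2 between starved populations turned to 0.067, 0.014 and 0.024, and cyp7a1 for the difference in response to -0.18, -0.0044 and -0.21. Under median-of-ratios scaling the difference in response of abcb11b was -0.14 and that of amacr -0.10, and under quantile normalization that of amacr was -0.11. With both libraries left out cyp27a1.2 turned to 0.048 between starved and 0.15 between refed populations and to 0.10 for the difference in response. With 1 library left out, values crossed 0 for cyp7a1 in surface refeeding (-1.71 to 0.46), Pachón refeeding (-1.35 to 0.29) and the difference (-0.89 to 1.34), and for AKR1D1 in surface refeeding (-0.31 to 0.33). They did so too for cyp27a1.2 between starved (-0.25 to 0.048) and refed populations (-1.06 to 0.15) and in the difference (-1.001 to 0.21), and in the difference for abcb11b (-0.023 to 0.38), cyp7b1 (-0.043 to 0.71) and amacr (-0.14 to 0.59).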

Other observations

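Genes of the same families that the rule did not take were looked at after the members, and were chosen by family name. They were cyp27c1, slc10a7, slc10a3, cyp27b1, slc10a4 and hsd3b1. slc10a7, a member of the bile salt carrier family that is not known to carry bile salts, had 10.6, 10.5 and 8.29 TPM in refed Pachón cavefish, against 2.53, 3.05 and 3.16 TPM in starved Pachón cavefish and 5.14, 2.95 and 5.71 TPM in refed surface fish. It rose by 1.46 ± 0.28 with the Pachón meal (limma adjusted p = 0.00248) and was higher by 0.97 ± 0.28 in refed Pachón than in refed surface fish (limma adjusted p = 0.0395), while the meal responses differed between populations by 1.05 ± 0.39, which was not called (limma adjusted p = 0.233). Of all tested genes, 22.9% were called higher in Pachón refeeding and 9.82% in refed Pachón against refed surface fish. The Pachón meal call stood under every alternative (adjusted p up to 0.0125). The call between refed populations ended under 6 of 9 other settings and without any 1 of 8 libraries (adjusted p up to 0.141), namely all refed and starved Pachón libraries and refed surface replicates 1 and 2.

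cyp27b1, the vitamin D hydroxylase of the cyp27 family, stood at 394 TPM in refed surface replicate 3, against 0.18 to 31.3 TPM in the other 11 libraries. slc10a4, a relative of the bile salt carriers, had 20.1 TPM in refed surface replicate 1 and 13.5 TPM in starved surface replicate 2, and 0.44 to 1.68 TPM in the other 10 libraries. Neither gene was called in any comparison (lowest limma adjusted p = 0.240 for cyp27b1 and 0.485 for slc10a4). No comparison called cyp27c1 or slc10a3 either (lowest limma adjusted p = 0.224 and 0.0745), and hsd3b1 was not tested.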
